A study of Mus musculus with 12 samples.

Results

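The cytochrome P450 genes of families 1, 2 and 3 were taken as the genes whose symbol is Cyp1, Cyp2 or Cyp3 followed by a subfamily letter and a number, with the entry of highest mean where a symbol had several. Of 58 such symbols, 4 were listed at 0 in every library (Cyp2c66, Cyp2j11, Cyp2j12 and Cyp2w1), which left 54 members of 24033 symbols in the table. They were measured in liver RNA of wild-type C57BL/6 females, in 12 libraries of 4 groups of 3. The groups were ovariectomized females given dexamethasone (1 mg/kg, 6 h), ovariectomized females given PBS vehicle, intact females given dexamethasone, and intact females given PBS vehicle. Dexamethasone is a glucocorticoid drug, and taking out the ovaries removes most circulating oestrogen. The labels give no age and no time since surgery, and do not state whether each replicate came from its own animal. Every p-value therefore reflects the spread among these libraries, which may be technical. Of the 54 members, 45 had a mean log2 value of at least 4 and were tested. The other 9 (Cyp2b19, Cyp2b23, Cyp2c65, Cyp2d12, Cyp2d34, Cyp2j8, Cyp2j13, Cyp2t4 and Cyp3a57) lay below it and were not tested.

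Cytochrome P450s are haem enzymes that insert oxygen into lipophilic compounds, using electrons passed on by P450 reductase. Families 1, 2 and 3 hold most of the liver enzymes that clear drugs and foreign chemicals, and many of their members also hydroxylate steroids, fatty acids and retinoids. Their genes are controlled by ligand-activated receptors (AHR for Cyp1a, CAR for Cyp2b10, PXR for Cyp3a11) and, for sex-biased members, by the pattern of growth hormone release. CAR and PXR are themselves known glucocorticoid-responsive genes.

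Levels below are the deposited log2 values, and each difference is a log2 fold change with its SE, from limma, which fitted the 4 groups together over 12965 genes. The threshold was an adjusted p (Benjamini-Hochberg) under 0.05, and rose or fell is written only of genes that passed it. The libraries had medians of 8.82 to 8.86 over these genes, and the table keeps no read depth. All 6 hepatocyte markers, albumin and transthyretin among them, passed the filter on low values, and they summed to 21.89 to 22.25 in every library. In bulk tissue, fewer cells of a type and less RNA per cell cannot be told apart. Among the members tested, 19 share at least 20% of their 50-base words with another mouse gene, so reads could have been divided between copies, and their values are uncertain. They are Cyp2a4, Cyp2a5, Cyp2a12, Cyp2a22, Cyp2b13, Cyp2c37, Cyp2c40, Cyp2c50, Cyp2c54, Cyp2c67, Cyp2c68, Cyp2c69, Cyp2d9, Cyp2d10, Cyp2d11, Cyp2d40, Cyp3a25, Cyp3a44 and Cyp3a59. Cyp2d13 had no matching transcript and was not assessed for copies.

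The Cyp2b and Cyp2a genes lie together on chromosome 7, where Cyp2b10 rose with dexamethasone and Cyp2b9, Cyp2b13, Cyp2a4 and Cyp2a5 fell in intact females, so the 250 bases before the start site in RefSeq's promoter table are given for these 5. The sequences are RefSeq promoter windows of build GRCm38.p6, all on the plus strand, printed 5′ to 3′. For Cyp2b9 and Cyp2b13 that start site lies 59 and 107 bases downstream of the gene's start in RefSeq's gene table, so the end of each window lies inside the annotated gene. For the other 3 the starts are the same. The deposited table used another build, mm9. Capitals mark matches to 3 motifs, chosen with these windows in view: TTGCATAA (C/EBP type), CAAAGTCC (HNF4 type) and TATAAA (the core of the TATA box). Cyp2b10 rose, and its window is chr7:25897408-25897657. Cyp2b9 (chr7:26173159-26173408) and Cyp2b13 (chr7:26061245-26061494) fell, and for Cyp2b9 the fall passed in intact females alone. Cyp2a4 (chr7:26306942-26307191) and Cyp2a5 (chr7:26835089-26835338) fell too.
Cyp2b10: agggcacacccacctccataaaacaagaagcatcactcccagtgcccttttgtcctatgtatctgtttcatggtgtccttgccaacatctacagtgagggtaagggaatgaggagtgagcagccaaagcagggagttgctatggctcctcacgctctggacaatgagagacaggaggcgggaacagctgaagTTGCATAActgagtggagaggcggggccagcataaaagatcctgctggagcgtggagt
Cyp2b9: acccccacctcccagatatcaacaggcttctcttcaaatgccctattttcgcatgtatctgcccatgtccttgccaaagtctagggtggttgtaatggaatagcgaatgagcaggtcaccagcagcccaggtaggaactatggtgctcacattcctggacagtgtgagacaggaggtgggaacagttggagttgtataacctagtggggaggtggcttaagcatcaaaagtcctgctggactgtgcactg
Cyp2b13: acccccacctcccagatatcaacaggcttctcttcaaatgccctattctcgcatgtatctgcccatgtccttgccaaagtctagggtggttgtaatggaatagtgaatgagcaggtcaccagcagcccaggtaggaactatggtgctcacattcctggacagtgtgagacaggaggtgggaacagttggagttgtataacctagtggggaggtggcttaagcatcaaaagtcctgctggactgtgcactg
Cyp2a4: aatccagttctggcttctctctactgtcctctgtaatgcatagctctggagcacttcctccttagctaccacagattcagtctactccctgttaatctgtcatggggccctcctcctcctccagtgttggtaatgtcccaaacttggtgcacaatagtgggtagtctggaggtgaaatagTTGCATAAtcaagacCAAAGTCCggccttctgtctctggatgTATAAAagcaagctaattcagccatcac
Cyp2a5: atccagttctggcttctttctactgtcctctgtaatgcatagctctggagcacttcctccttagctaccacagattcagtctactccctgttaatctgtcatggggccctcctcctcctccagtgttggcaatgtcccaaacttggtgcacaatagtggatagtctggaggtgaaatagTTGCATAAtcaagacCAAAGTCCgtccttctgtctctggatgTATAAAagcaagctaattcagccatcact

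The Cyp2b9 and Cyp2b13 windows were 99.2% identical and differed by T48C and C104T, with the Cyp2b9 base first and positions counted from the 5′ end of the window. The Cyp2b10 window was 71% identical to each of them. The Cyp2a4 and Cyp2a5 windows were 97.6% identical. Searched on both strands, TTGCATAA was in the windows of Cyp2b10, Cyp2a4 and Cyp2a5, among 5 of the 46 members with a window (10.9%), against 0.744% of 27025 gene windows. CAAAGTCC was in 10 of the 46 (21.7%), against 1.22% of all windows, and TATAAA in 22 (47.8%), against 13%. AGAACA, a glucocorticoid receptor half-site, was in 12 of the 46 (26.1%), against 16.2% of all windows, and was in none of the 5 windows printed. None of the 4 motifs contains another. A match is a description of these letters and not a site of binding, and members of 1 subfamily share sequence, so their matches are not independent. TTGCATAA, CAAAGTCC and TATAAA were chosen with the 5 printed windows in view, so their higher shares among members are not a test of enrichment.

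With dexamethasone, Cyp2b10 was the member with the largest rise in either gonadal state, while Cyp2a4, Cyp2a5, Cyp2a22, Cyp2b13, Cyp2g1, Cyp2c44, Cyp2r1 and Cyp3a59 fell in both. In ovariectomized females 4 of the 45 members rose (8.89%) and 9 fell (20%), where 21.3% of all genes tested rose and 19.4% fell. In intact females 3 rose (6.67%) and 20 fell (44.4%), where 22.8% of all genes rose and 25.9% fell. In either direction, 28.9% of members changed in ovariectomized females and 51.1% in intact females, against 40.7% and 48.8% of all genes. The median change of the members was -0.04 in ovariectomized and -0.31 in intact females, beside 0.00 for all genes in both. Of the members that fell, 8 fell in both states, which is 88.9% of those in ovariectomized and 40% of those in intact females, and no member rose in one state and fell in the other. Over all genes tested, 1369 fell in both states, which is 54.4% of those in ovariectomized and 40.7% of those in intact females, and 2.85% of genes rose in one state and fell in the other. The ovariectomized and intact comparisons have no library in common.

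**Figure D1:**
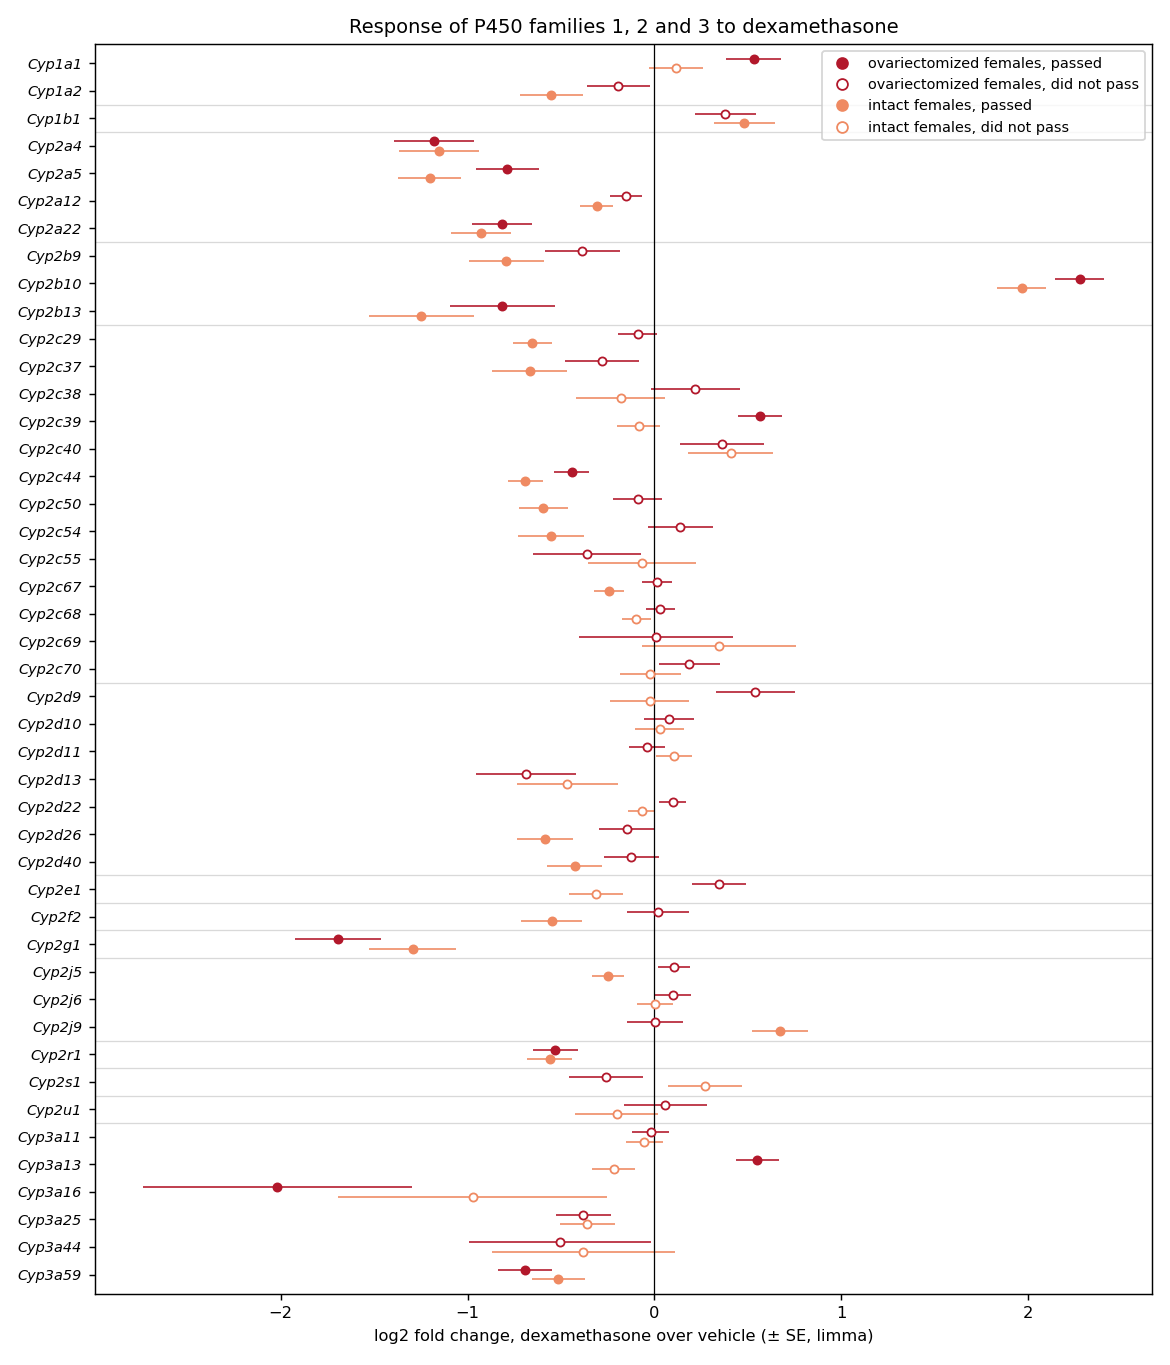
Log2 fold change of each member with dexamethasone over vehicle (x axis, ± SE from limma) for the 45 members tested, in order of subfamily. Red marks ovariectomized and orange intact females, and filled points passed at an adjusted p under 0.05. Cyp2b10 stands alone at 2.28 in ovariectomized and 1.97 in intact females, and most other filled points lie left of 0.

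The third intact dexamethasone library had the lowest value of its 3 in 26 of the 45 members, with a median deviation of -0.16 from its group mean. Other libraries were also uneven. The first ovariectomized vehicle and dexamethasone libraries were lowest in 24 and 23 members, and the second intact dexamethasone library was highest in 28. The same positions over all genes were not counted. Without the third intact dexamethasone library, 4 members rose and 14 fell in intact females, beside 2694 and 3142 of all genes. Without the first intact vehicle library 5 rose and 14 fell, beside 2460 and 2914 genes. After quantile normalization 3 rose and 14 fell, beside 3163 and 3075 genes.

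Cyp2b10, the hallmark target of the phenobarbital receptor CAR, was higher with dexamethasone in both states. It had 14.35, 13.94 and 14.17 in ovariectomized dexamethasone libraries, against 11.79, 11.74 and 12.10 in ovariectomized vehicle libraries. In intact females it had 13.87, 13.55 and 14.00 with dexamethasone, against 11.76, 11.90 and 11.87 with vehicle. Every dexamethasone library lay above every vehicle library. The rise was 2.28 ± 0.13, or 4.85-fold, in ovariectomized females (limma adjusted p = 1.11e-06) and 1.97 ± 0.13, or 3.91-fold, in intact females (limma adjusted p = 2.23e-06). The difference between the responses, ovariectomized minus intact, was 0.31 ± 0.19 with a 95% interval of -0.09 to 0.72 and did not pass (limma adjusted p = 0.235).

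Cyp2b9 and Cyp2b13, female-predominant enzymes of mouse liver, moved the other way. Cyp2b13 had 12.27, 12.68 and 12.35 in ovariectomized dexamethasone libraries, against 13.09, 13.21 and 13.44 in ovariectomized vehicle libraries. Intact libraries had 12.20, 12.55 and 11.15 with dexamethasone, against 12.88, 13.34 and 13.41 with vehicle. The groups did not overlap in either state, and the third intact dexamethasone library was the lowest of all 12. Cyp2b13 fell by 0.81 ± 0.28 in ovariectomized females (limma adjusted p = 0.0368) and by 1.25 ± 0.28 in intact females (limma adjusted p = 0.00341). In ovariectomized females this call was lost without any 1 library except the second dexamethasone library, at adjusted p from 0.0589 to 0.11, and also with no filter on low values or with limma's robust prior (adjusted p = 0.0521 and 0.0566). Cyp2b9 had 12.89, 13.20 and 12.22 in intact dexamethasone libraries, against 13.55, 13.58 and 13.56 in intact vehicle libraries, and fell by 0.79 ± 0.20 (limma adjusted p = 0.00666), or by 0.52 without the third dexamethasone library (adjusted p = 0.0105). In ovariectomized females its change was -0.39 ± 0.20 and did not pass (limma adjusted p = 0.146), with groups that overlapped. The difference between its 2 responses was 0.41 ± 0.28, with a 95% interval of -0.21 to 1.03 (limma adjusted p = 0.31).

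**Figure D2:**
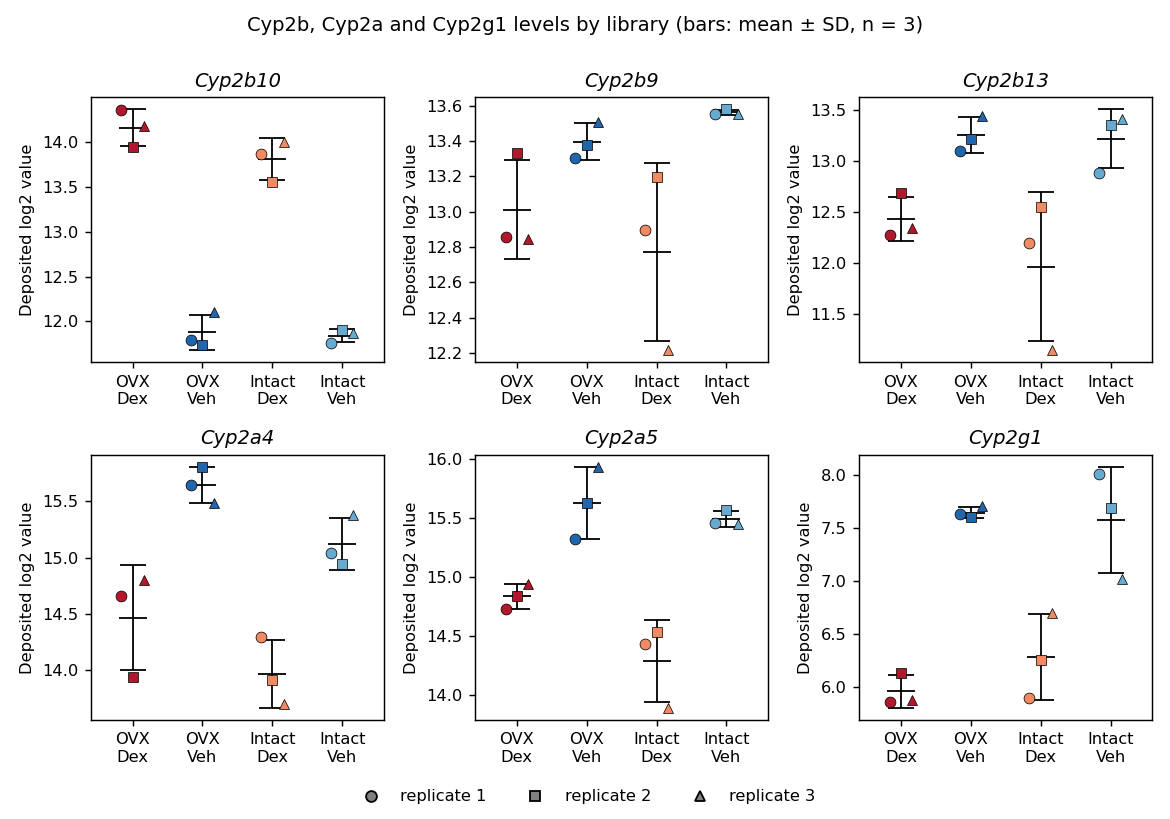
Deposited log2 values (y axis, not starting at 0) of Cyp2b10, Cyp2b9, Cyp2b13, Cyp2a4, Cyp2a5 and Cyp2g1 in each library, with the group mean ± SD (bars, n = 3). Symbols mark the replicate number. Cyp2b10 is higher with dexamethasone (means of 14.16 and 13.81, against 11.88 and 11.84 with vehicle), and the other 5 have lower means with dexamethasone in both gonadal states.

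All 4 Cyp2a genes tested fell in intact females and 3 of the 4 fell in ovariectomized females, where 25.9% and 19.4% of all genes fell. All 4 are among the members that share words with other genes, so their falls may not be separate results. Cyp2a5 hydroxylates coumarin and nicotine, and Cyp2a4 is a female-predominant steroid hydroxylase. The pair share 38% of the words of Cyp2a4 and 40.8% of those of Cyp2a5 with other genes, so their separate values are uncertain. Cyp2a5 had 14.73, 14.84 and 14.94 in ovariectomized dexamethasone libraries, against 15.32, 15.62 and 15.93 in ovariectomized vehicle libraries. With dexamethasone intact females had 14.43, 14.54 and 13.89, against 15.45, 15.56 and 15.45 in intact females given vehicle. No library of one treatment reached the range of the other. Cyp2a5 fell by 0.79 ± 0.17 in ovariectomized females (limma adjusted p = 0.00336) and by 1.20 ± 0.17 in intact females (limma adjusted p = 0.000175). Cyp2a4 had 14.66, 13.94 and 14.80 in ovariectomized dexamethasone libraries, against 15.65, 15.80 and 15.48 in ovariectomized vehicle libraries. In intact females it had 14.29, 13.91 and 13.70 with dexamethasone, against 15.04, 14.94 and 15.38 with vehicle. Its falls, with no overlap of groups, were 1.18 ± 0.21 in ovariectomized (limma adjusted p = 0.00126) and 1.15 ± 0.21 in intact females (limma adjusted p = 0.00105).

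Cyp2a22 fell by 0.82 ± 0.16 in ovariectomized and by 0.93 ± 0.16 in intact females (limma adjusted p = 0.0021 and 0.000673). Cyp2a12, a steroid hydroxylase, fell by 0.31 ± 0.09 in intact females (limma adjusted p = 0.012), and this call was lost without the first intact vehicle library (-0.25, adjusted p = 0.0526) and after quantile normalization (-0.18, adjusted p = 0.0542).

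Cyp2g1, an enzyme best known from olfactory tissue, had the largest fall in intact females. It had 5.86, 6.13 and 5.88 in ovariectomized dexamethasone libraries, against 7.63, 7.61 and 7.71 in ovariectomized vehicle libraries. Intact libraries had 5.89, 6.25 and 6.70 with dexamethasone, against 8.01, 7.69 and 7.02 with vehicle. The groups did not overlap in either state. It fell by 1.69 ± 0.23, or 3.23-fold, in ovariectomized females (limma adjusted p = 0.000227) and by 1.29 ± 0.23, or 2.45-fold, in intact females (limma adjusted p = 0.00081). Cyp2r1, a vitamin D 25-hydroxylase, fell by 0.53 ± 0.12 in ovariectomized and by 0.56 ± 0.12 in intact females (limma adjusted p = 0.00461 and 0.00248).

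The Cyp2c subfamily, on chromosome 19, is the largest of the group, and its members oxidise arachidonic acid, retinoids and steroids. Of 13 tested, 1 rose and 1 fell in ovariectomized females, and 6 fell in intact females (Cyp2c29, Cyp2c37, Cyp2c44, Cyp2c50, Cyp2c54 and Cyp2c67). Of all genes, 21.3% rose and 19.4% fell in ovariectomized females, and 25.9% fell in intact females. Cyp2c44, an arachidonic acid epoxygenase that RefSeq lists as Cyp2c23, fell in both. It had 12.94, 12.98 and 13.05 in ovariectomized dexamethasone libraries, against 13.41, 13.67 and 13.21 in ovariectomized vehicle libraries. With dexamethasone intact females had 12.86, 12.97 and 12.81, against 13.57, 13.58 and 13.56 in intact females given vehicle. The groups did not overlap, and the falls were 0.44 ± 0.09 in ovariectomized and 0.69 ± 0.09 in intact females (limma adjusted p = 0.0032 and 0.000141).

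Cyp2c37 fell by 0.67 ± 0.20 in intact females (limma adjusted p = 0.0158). The call was lost without the third intact dexamethasone library (-0.47, adjusted p = 0.0601) or the second intact vehicle library (-0.48, adjusted p = 0.0661). Cyp2c50, Cyp2c54 and Cyp2c67 fell there by 0.60, 0.55 and 0.24 (limma adjusted p = 0.00289, 0.0214 and 0.024). After quantile normalization they were -0.37, -0.39 and -0.13, and Cyp2c54 and Cyp2c67 no longer passed (adjusted p = 0.0734 and 0.218). Those 2 calls were also lost without the third intact dexamethasone library (-0.37 and -0.18, adjusted p = 0.0817 and 0.0908), that of Cyp2c54 without the first intact vehicle library (-0.49, adjusted p = 0.0751), and that of Cyp2c67 without the third (-0.21, adjusted p = 0.0836). Cyp2c40 did not pass in any comparison. Its values ran from 12.68 to 12.87 in ovariectomized dexamethasone libraries, 12.28 to 12.48 in ovariectomized vehicle libraries, 12.69 to 13.16 in intact dexamethasone libraries and 11.93 to 13.14 in intact vehicle libraries. The first intact vehicle library was the highest of its group for Cyp2c40, and also for Cyp2c69 (13.76, beside 11.95 and 12.29) and Cyp3a44 (9.32, beside 7.18 and 7.37).

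Of the 7 Cyp2d genes tested, on chromosome 15, 0 passed with dexamethasone in ovariectomized females in limma, and 2 had an unadjusted p under 0.05. In intact females 2 of the 7 fell (28.6%, beside 25.9% of all genes), Cyp2d26 by 0.59 ± 0.15 and Cyp2d40 by 0.43 ± 0.15 (limma adjusted p = 0.00669 and 0.0306). The Cyp2d40 call was lost without the third intact dexamethasone library (-0.23) and without the first or the third intact vehicle library (-0.41 and -0.36), at adjusted p from 0.076 to 0.108, after quantile normalization (-0.38, adjusted p = 0.0546), and with a fit to only the libraries compared (adjusted p = 0.0712). Cyp2d26 had the highest mean of its subfamily. It had 13.95, 14.37 and 13.69 in intact dexamethasone libraries, against 14.52, 14.74 and 14.52 in intact vehicle libraries, and these groups did not overlap. Cyp2d9, a male-predominant testosterone 16α-hydroxylase, passed in no comparison. Its change in ovariectomized females was 0.54 ± 0.21 (limma adjusted p = 0.0588), with 12.11, 12.46 and 12.49 with dexamethasone, against 11.94, 12.08 and 11.42 with vehicle.

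**Figure D3:**
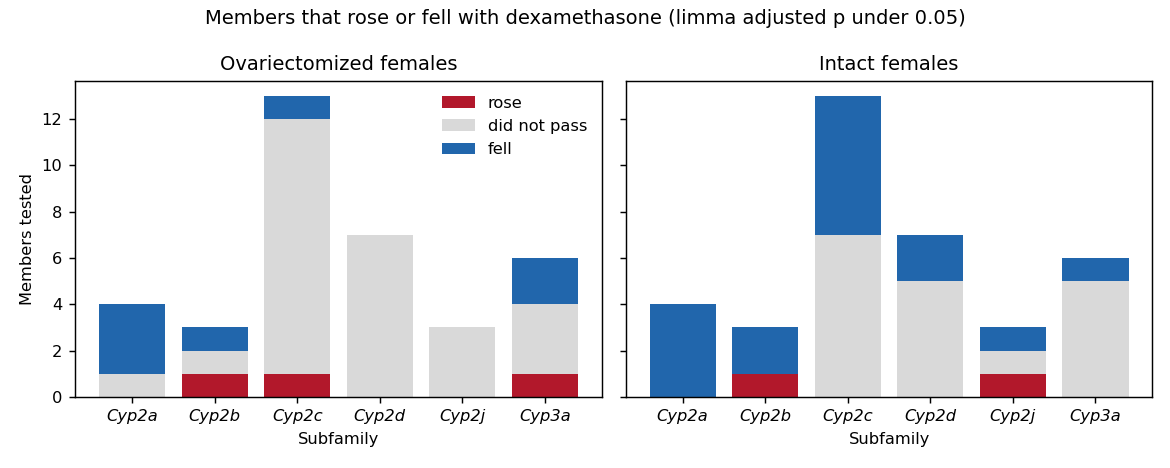
Number of tested members (y axis) that rose, did not pass or fell with dexamethasone in limma at an adjusted p under 0.05, for each subfamily with 3 or more members tested. Ovariectomized females are on the left and intact females on the right. Cyp2a members fell in both (3 of 4 and 4 of 4), and Cyp2c has 1 fall in ovariectomized and 6 in intact females. Of all genes tested, 19.4% fell in ovariectomized and 25.9% in intact females.

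Cyp3a11, the main PXR-driven Cyp3a enzyme of mouse liver, did not pass in any comparison. It had 15.92, 15.97 and 16.15 in ovariectomized dexamethasone libraries, against 16.02, 16.10 and 15.98 in ovariectomized vehicle libraries. In intact females it had 15.84, 16.03 and 16.20 with dexamethasone, against 16.09, 16.12 and 16.02 with vehicle. The groups overlapped in both states. Its change was -0.02 ± 0.10 in ovariectomized females, with a 95% interval of -0.24 to 0.20 (limma adjusted p = 0.892). It was -0.05 ± 0.10 in intact females, with an interval of -0.27 to 0.16 (limma adjusted p = 0.681). A rise of the size of that of Cyp2b10 lies outside both intervals.

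The other Cyp3a genes, all on chromosome 5, did not move as one. Cyp3a13 rose in ovariectomized females, Cyp3a59 fell in both states, and Cyp3a16 fell in ovariectomized females. Cyp3a59 had 9.23, 9.18 and 9.23 in ovariectomized dexamethasone libraries, against 9.70, 9.71 and 10.30 in ovariectomized vehicle libraries. Intact libraries had 9.73, 9.70 and 9.64 with dexamethasone, against 10.24, 10.41 and 9.96 with vehicle. The groups did not overlap in either state. Its falls were 0.69 ± 0.14 in ovariectomized and 0.51 ± 0.14 in intact females (limma adjusted p = 0.00276 and 0.0112).

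Cyp3a16, a form known from fetal and female liver, was the most variable member, with a pooled SD within groups of 1.07. It had 6.32, 6.21 and 6.07 in ovariectomized dexamethasone libraries, against 9.67, 5.98 and 9.01 in ovariectomized vehicle libraries. With dexamethasone intact females had 8.47, 7.14 and 7.18, against 8.88, 8.51 and 8.31 in intact females given vehicle. The second ovariectomized vehicle library lay below every dexamethasone library, so the groups overlapped. The fall of 2.02 ± 0.72 in ovariectomized females (limma adjusted p = 0.0417) was -3.14 without that library (adjusted p = 0.00017). It was -1.29 without the first ovariectomized vehicle library (adjusted p = 0.174) and -1.62 without the third (adjusted p = 0.14), and it did not pass without any 1 of the dexamethasone libraries (adjusted p = 0.0794 to 0.099). It also did not pass with no filter on low values, with the robust prior, or with only the libraries compared (adjusted p = 0.0587, 0.0691 and 0.0827). In intact females the change was -0.97 ± 0.72 and did not pass (limma adjusted p = 0.286).

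**Figure D4:**
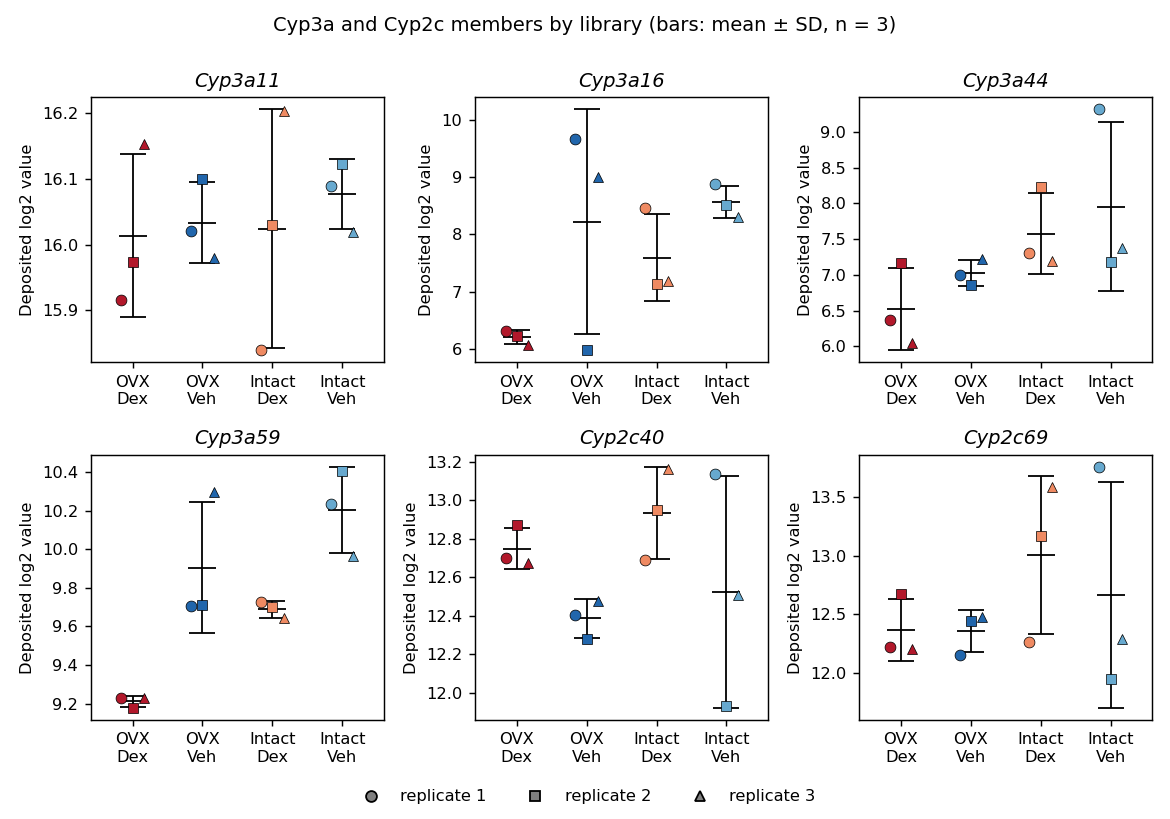
Deposited log2 values (y axis, not starting at 0) of 4 Cyp3a and 2 Cyp2c members in each library, with the group mean ± SD (bars, n = 3). Cyp3a11 stays between 15.84 and 16.20 in every library, while Cyp3a16 spans 5.98 to 9.67 within the ovariectomized vehicle group.

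Among the other members, Cyp1a1, an AHR target that oxidises polycyclic hydrocarbons, rose in ovariectomized females. It had 6.00, 5.59 and 5.63 with dexamethasone, against 5.09, 5.17 and 5.37 with vehicle, and rose by 0.53 ± 0.15 (limma adjusted p = 0.0129). The call was lost without the first library of either group (0.40 without the dexamethasone and 0.47 without the vehicle library, adjusted p = 0.0569 and 0.0535). Cyp1a2, which metabolises caffeine and aromatic amines, had 13.99, 14.18 and 13.49 in intact dexamethasone libraries, against 14.59, 14.18 and 14.55 in intact vehicle libraries. It fell by 0.55 ± 0.17 there (limma adjusted p = 0.0181), although the groups overlapped. The call was lost without the third dexamethasone library (-0.35, adjusted p = 0.063) and without the first or the third vehicle library (-0.48 and -0.50, adjusted p = 0.0685 and 0.0621). In ovariectomized females the change of Cyp1a2 was -0.19 ± 0.17 and did not pass (limma adjusted p = 0.385). Cyp1b1, an oestrogen-hydroxylating enzyme found mostly outside the liver, was near the lower limit of the genes tested. It had 4.75, 4.24 and 4.92 in intact dexamethasone libraries, against 4.26, 4.17 and 4.03 in intact vehicle libraries, with overlap. Its rise of 0.48 ± 0.16 (limma adjusted p = 0.0284) was lost without 4 of the 6 libraries, the first and the third with dexamethasone and the second and the third with vehicle (adjusted p = 0.0559 to 0.107), and with only the libraries compared (adjusted p = 0.0671).

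Cyp2f2, which activates naphthalene, and Cyp2j5, an arachidonic acid epoxygenase, fell in intact females by 0.55 ± 0.17 and 0.25 ± 0.09 (limma adjusted p = 0.0164 and 0.0323). The Cyp2f2 call was lost without the first dexamethasone library or the first or the third vehicle library (adjusted p = 0.0614 to 0.0675) and after quantile normalization (-0.40, adjusted p = 0.0559). That of Cyp2j5, whose groups overlapped, was lost without the first or the third library of either group (adjusted p = 0.077 to 0.135), after quantile normalization (-0.09, adjusted p = 0.405), and with only the libraries compared (adjusted p = 0.0881).

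Ovariectomy itself was compared under each treatment, and each of these comparisons shares a group of libraries with each dexamethasone comparison. The members had a median pooled SD within groups of 0.213, against 0.109 for all genes tested. A change of equal size would therefore pass less readily for most members, which limits these shares and those for dexamethasone. Under vehicle 3 of 45 rose (Cyp2c38, Cyp2j9 and Cyp2d11) and 2 fell (Cyp3a13 and Cyp2c54), or 11.1%, where 27.9% of all genes passed (12.4% higher and 15.5% lower). Under dexamethasone 5 rose (Cyp2c38, Cyp1a1, Cyp2d11, Cyp2c39 and Cyp2c67) and 1 fell (Cyp3a59), or 13.3%, where 12.8% of all genes passed (7.74% higher and 5.08% lower). Of these, Cyp2c38 and Cyp2d11 rose under both treatments. Under vehicle 3 members passed without the first or the third intact vehicle library. Under dexamethasone 0 passed in limma without the first intact or the third ovariectomized dexamethasone library (13 and 8 at an unadjusted p under 0.05), and 3 passed without the third intact or the first ovariectomized one.

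Cyp2c38, an arachidonic acid-metabolising enzyme, was the member with the largest rise after ovariectomy. It had 10.44, 11.15 and 10.12 in ovariectomized vehicle libraries, against 9.73, 9.88 and 9.70 in intact vehicle libraries. Under dexamethasone it had 10.72, 10.81 and 10.83 in ovariectomized libraries, against 9.57, 10.03 and 9.16 in intact libraries. The gonadal states did not overlap under either treatment. It rose by 0.80 ± 0.24 under vehicle (limma adjusted p = 0.0266) and by 1.20 ± 0.24, or 2.30-fold, under dexamethasone (limma adjusted p = 0.013). The vehicle call was lost without the second ovariectomized library (0.51, adjusted p = 0.0852) and without the first or the third intact library (0.78 and 0.76, adjusted p = 0.0778 and 0.0767). The dexamethasone call was lost without the first intact library (1.19, adjusted p = 0.0523) or the third ovariectomized library (1.17, adjusted p = 0.0573). Cyp2d11 had 8.34, 8.41 and 8.34 in ovariectomized vehicle libraries, against 7.74, 7.70 and 7.85 in intact vehicle libraries, with no overlap. It rose by 0.60 ± 0.10 under vehicle (limma adjusted p = 0.00155) and by 0.45 ± 0.10 under dexamethasone (limma adjusted p = 0.0171). Without the first intact or the third ovariectomized dexamethasone library, the value under dexamethasone was 0.48 and 0.43 (adjusted p = 0.0529 and 0.0733), and with only the libraries compared its adjusted p was 0.0639.

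Under dexamethasone Cyp1a1, Cyp2c39 and Cyp2c67 were higher in ovariectomized females by 0.53 ± 0.15, 0.45 ± 0.12 and 0.37 ± 0.08 (limma adjusted p = 0.0381, 0.0314 and 0.0171). Cyp1a1 and Cyp2c39 each lost their call without 5 of the 6 libraries (adjusted p = 0.0566 to 0.112), all except the second ovariectomized library for Cyp1a1 and the second intact library for Cyp2c39. The Cyp1a1 call was also lost with no filter on low values and with only the libraries compared (limma adjusted p = 0.0592 and 0.078). Cyp2c67 lost its call without the first intact (0.40, adjusted p = 0.0523) or the third ovariectomized library (0.37, adjusted p = 0.0693), and after quantile normalization (0.25, adjusted p = 0.0993). The remaining falls after ovariectomy were small. Cyp2c54 was 0.52 ± 0.18 lower under vehicle (limma adjusted p = 0.044), a call that was lost without any 1 of the 6 libraries except the second ovariectomized one (adjusted p = 0.0535 to 0.155). It was also lost with no filter on low values, quantile normalization, no variance trend or the robust prior (limma adjusted p = 0.0536 to 0.0628). Cyp3a59 was 0.48 ± 0.14 lower under dexamethasone (limma adjusted p = 0.049), and this was lost without any 1 of the 6 libraries (adjusted p = 0.0714 to 0.127). The Cyp3a59 call was lost under the same other settings as that of Cyp2c54 (limma adjusted p = 0.0532 to 0.0684).

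Female-biased P450s, a list of 9 genes tested that includes Cyp2a4, Cyp2b9, Cyp2b10, Cyp2b13, Cyp2c40, Cyp2c69, Cyp3a16, Cyp3a44 and the letter-suffixed copy Cyp3a41a, had 1 rise and 3 falls with dexamethasone in each gonadal state, with medians of -0.39 in ovariectomized and -0.38 in intact females. Of all genes, 21.3% rose and 19.4% fell in ovariectomized females, and 22.8% rose and 25.9% fell in intact females. After ovariectomy 0 of the 9 passed in limma under either treatment, and 2 had an unadjusted p under 0.05 under each, where 27.9% of all genes passed under vehicle and 12.8% under dexamethasone. Cyp2a4 was 0.53 ± 0.21 higher in ovariectomized than in intact vehicle libraries without overlap but did not pass (limma adjusted p = 0.087). Cyp3a44 was lower by 0.93 ± 0.49 after ovariectomy under vehicle and by 1.05 ± 0.49 under dexamethasone, and passed in neither (limma adjusted p = 0.177 and 0.166). Cyp3a41a lay between 3.85 and 6.21 in all libraries.

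The response to dexamethasone itself differed between ovariectomized and intact females for 5 of the 45 members (11.1%), where 24.9% of all genes passed. The difference passed with a positive sign for 4 (Cyp3a13, Cyp2e1, Cyp2c39 and Cyp2c29; 15.3% of all genes) and with a negative sign for 1 (Cyp2j9; 9.65% of all genes). The difference is the ovariectomized response minus the intact response. Its sign was positive for 31 and negative for 14 of the 45 members. The median was 0.21, beside 0.01 for all genes, and the signs over all genes were not counted. The number that passed was 8 without the second intact dexamethasone or the second ovariectomized vehicle library. It was 3 without the third intact dexamethasone, the second or the third ovariectomized dexamethasone, the first ovariectomized vehicle or the first intact vehicle library.

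Cyp3a13, a Cyp3a enzyme of liver and intestine, was lowest in ovariectomized vehicle libraries. It had 13.02, 13.02 and 12.81 in ovariectomized dexamethasone libraries, against 12.23, 12.42 and 12.54 in ovariectomized vehicle libraries. In intact females it had 12.64, 12.88 and 12.91 with dexamethasone, against 13.02, 13.23 and 12.84 with vehicle. It rose by 0.55 ± 0.11 with dexamethasone in ovariectomized females (limma adjusted p = 0.00261), with no overlap. In intact females its change was -0.22 ± 0.11 (limma adjusted p = 0.131). The responses differed by 0.77 ± 0.16 (limma adjusted p = 0.00597), and the gene was 0.63 ± 0.11 lower after ovariectomy under vehicle (limma adjusted p = 0.00248). These and the rise in ovariectomized females all use the same ovariectomized vehicle libraries, so they are not independent results.

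Cyp2c39, a retinoic acid hydroxylase, rose with dexamethasone in ovariectomized females by 0.57 ± 0.12 (limma adjusted p = 0.00253). It had 7.83, 7.97 and 7.80 in ovariectomized dexamethasone libraries, against 7.11, 7.34 and 7.45 in ovariectomized vehicle libraries. Intact libraries had 7.34, 7.51 and 7.41 with dexamethasone, against 7.74, 7.31 and 7.46 with vehicle, a change of -0.08 ± 0.12 (limma adjusted p = 0.57). The ovariectomized dexamethasone libraries were the 3 highest of all 12. The difference of 0.65 ± 0.16 passed (limma adjusted p = 0.0149). This difference, the rise with dexamethasone and the rise after ovariectomy under dexamethasone use the same ovariectomized dexamethasone libraries. They are not independent results.

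Cyp2c29, an arachidonic acid and retinoid-metabolising enzyme, fell by 0.65 ± 0.10 in intact females (limma adjusted p = 0.000376). It had 15.01, 15.14 and 15.20 in ovariectomized dexamethasone libraries, against 15.10, 15.13 and 15.40 in ovariectomized vehicle libraries. With dexamethasone intact females had 14.82, 14.96 and 14.75, against 15.38, 15.67 and 15.43 in intact females given vehicle. The intact groups did not overlap and the ovariectomized groups did, with a change of -0.09 ± 0.10 (limma adjusted p = 0.52). The difference was 0.56 ± 0.15 (limma adjusted p = 0.0172), and 0.33 after quantile normalization (adjusted p = 0.049). The difference includes the fall in intact females, so the fall and the difference are not independent results.

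Cyp2e1, which oxidises ethanol and acetaminophen, was the most abundant member of the 53 with a transcript length. Per kilobase of transcript, the mean level over all libraries was 17.18 for Cyp2e1, followed by 14.81 for Cyp3a11, 14.33 for Cyp2c29, 14.05 for Cyp2a5 and 14.00 for Cyp2a4. Cyp2e1 had 18.30, 18.34 and 18.17 in ovariectomized dexamethasone libraries, against 17.95, 18.04 and 17.78 in ovariectomized vehicle libraries. In intact females it had 17.82, 18.08 and 17.65 with dexamethasone, against 18.09, 18.35 and 18.05 with vehicle. Its change was 0.34 ± 0.14 in ovariectomized and -0.31 ± 0.14 in intact females, and neither passed (limma adjusted p = 0.0765 and 0.0925). The difference of 0.66 ± 0.20 passed (limma adjusted p = 0.0357). It did not pass without any 1 of 9 libraries, all except the second intact dexamethasone, the second ovariectomized vehicle and the third intact vehicle libraries (adjusted p = 0.0506 to 0.0791), nor after quantile normalization (0.46, adjusted p = 0.168), nor with no filter on low values (adjusted p = 0.0809).

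Cyp2j9, a member of the arachidonic acid epoxygenase subfamily, was lowest in intact vehicle libraries. It had 9.72, 9.85 and 9.74 in ovariectomized dexamethasone libraries, against 9.75, 9.91 and 9.65 in ovariectomized vehicle libraries. Intact libraries had 9.54, 9.80 and 9.74 with dexamethasone, against 8.94, 9.44 and 8.69 with vehicle. It rose by 0.67 ± 0.15 with dexamethasone in intact females (limma adjusted p = 0.00326) and by 0.75 ± 0.15 after ovariectomy under vehicle (limma adjusted p = 0.0044). Both rises, and the difference between responses, use the same intact vehicle libraries, so they are not independent results. In ovariectomized females its change with dexamethasone was 0.00 ± 0.15 (limma adjusted p = 0.993). The difference of -0.67 ± 0.21 passed (limma adjusted p = 0.0389). It was lost without any 1 of 9 libraries, all except the first intact dexamethasone, the third ovariectomized vehicle and the second intact vehicle libraries (adjusted p = 0.0536 to 0.0848), and with no filter on low values (adjusted p = 0.0552).

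**Figure D5:**
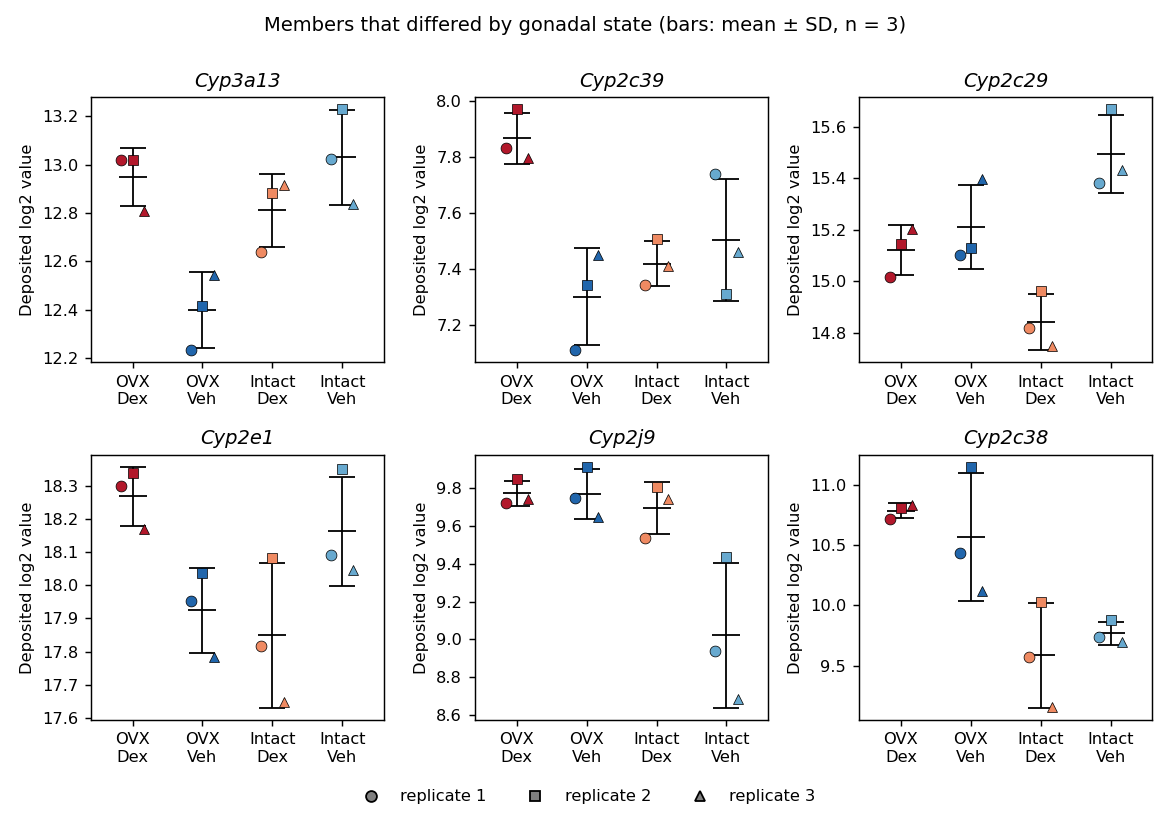
Deposited log2 values (y axis, not starting at 0) of the 5 members whose dexamethasone response differed between gonadal states, and of Cyp2c38, in each library, with the group mean ± SD (bars, n = 3). Cyp3a13 is lowest in the ovariectomized vehicle group (mean 12.40), Cyp2j9 is lowest in the intact vehicle group (mean 9.02), and both Cyp2c38 ovariectomized groups lie above the intact ones.

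Members varied more between replicates than the average gene. The median pooled SD was 0.213 for the 45 members and 0.109 for all genes tested, and 42 of the 45 lay above 0.109. In pattern over the 12 libraries, the members most like Cyp2b10 were Cyp1b1 (Pearson r = 0.791), Cyp1a1 (0.628) and Cyp2c39 (0.538). Those most like Cyp3a11 were Cyp2g1 (0.356), Cyp2c69 (0.353) and Cyp2c68 (0.32). These correlations describe libraries that share treatment groups.

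Receptors and electron carriers that serve these enzymes were counted from a list, 16 of 17 of which were tested. With dexamethasone 2 rose and 3 fell in ovariectomized females, and 1 rose and 10 fell in intact females, with medians of -0.10 and -0.39 beside 0.00 for all genes. The shares of all genes were 21.3% higher and 19.4% lower in ovariectomized, and 22.8% higher and 25.9% lower in intact females. In ovariectomized females Hnf4a, a hepatocyte transcription factor, rose by 0.81 ± 0.09 and Por, the P450 reductase, by 0.70 ± 0.10 (limma adjusted p = 5.22e-05 and 0.000275). In intact females Nr1i3, which encodes CAR, fell by 0.87 ± 0.20 and Nr3c1, the glucocorticoid receptor, by 0.57 ± 0.05 (limma adjusted p = 0.00322 and 1.44e-05). Ppara differed more there, with 12.51, 12.48 and 12.29 with dexamethasone against 13.63, 13.56 and 13.67 with vehicle. Cyb5b differed more than Nr3c1 (12.52, 12.58 and 12.51 against 13.34, 13.00 and 13.36). Nr1i3 had 12.32, 12.56 and 11.62 in intact dexamethasone libraries, against 13.08, 13.15 and 12.89 with vehicle. In ovariectomized libraries Nr1i3 had 12.18, 12.57 and 12.41 with dexamethasone, against 12.75, 12.98 and 12.62 with vehicle. Nr1i2, which encodes PXR, changed by 0.22 ± 0.08 in ovariectomized and -0.08 ± 0.08 in intact females and did not pass in either (limma adjusted p = 0.053 and 0.43). After ovariectomy 6 of the 16 fell under vehicle, where 15.5% of all genes fell, and 6 rose under dexamethasone, where 7.74% of all genes rose. The response differed for 6, all higher in ovariectomized females (15.3% of all genes), among them Hnf4a by 0.84 ± 0.12 and Por by 0.82 ± 0.14 (limma adjusted p = 0.00125 and 0.00218). These counts share libraries, so they are not independent, and they were not recomputed with a library left out. Over all genes, 1662 passed for ovariectomy under dexamethasone, and 207 to 1286 with 1 library left out.

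Genes of growth hormone control and P450s of other families were counted beside the same shares of all genes, 21.3% higher and 19.4% lower in ovariectomized and 22.8% and 25.9% in intact females. Of 12 genes of growth hormone control, 1 rose and 5 fell with dexamethasone in ovariectomized females, and 4 fell in intact females, with medians of -0.36 and -0.29. Ghr, the growth hormone receptor, fell by 0.43 ± 0.08 in ovariectomized and by 0.77 ± 0.08 in intact females (limma adjusted p = 0.00171 and 3.02e-05). Cux2, a female-biased repressor, fell by 1.73 ± 0.53 in ovariectomized females (limma adjusted p = 0.0225). It had 9.93, 7.64 and 8.21 there with dexamethasone, against 10.39, 10.60 and 9.96 with vehicle. Onecut1, on the same list, was higher with dexamethasone in ovariectomized females, with 8.39, 8.96 and 8.92 against 7.12, 8.03 and 6.87. After ovariectomy 2 of the 12 fell under vehicle, where 15.5% of all genes fell, and 1 rose under dexamethasone, where 7.74% rose. The response differed upward for 3 of the 12, beside 15.3% of all genes. P450s of other families, which include bile acid and steroid synthesis enzymes, had 10 rises and 1 fall of 24 tested in ovariectomized females, and 5 rises and 3 falls in intact females, with medians of 0.60 and 0.16. Among them Cyp17a1, a steroid 17-hydroxylase, rose by 1.75 ± 0.49 in ovariectomized and by 1.53 ± 0.49 in intact females (limma adjusted p = 0.0133 and 0.0214). The intact groups of Cyp17a1 overlapped, with 10.78, 11.44 and 11.35 with dexamethasone against 10.85, 8.78 and 9.36 with vehicle. Cyp26b1 differed more in ovariectomized females, with 8.58, 8.48 and 8.45 with dexamethasone against 6.195, 7.02 and 6.69 with vehicle. Cyp7a1, the rate-limiting enzyme of bile acid synthesis, rose by 1.16 ± 0.18 in ovariectomized females (limma adjusted p = 0.000516), and its responses differed by 0.97 ± 0.26 (limma adjusted p = 0.0192).

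Markers of cell type and liver zone moved with some of these groups, and their counts stand beside the shares of all genes given above (21.3% higher and 19.4% lower with dexamethasone in ovariectomized, 22.8% and 25.9% in intact females). Of 6 hepatocyte markers, Apoa1, Serpina1e and Tat rose in both states and Apob fell in intact females. After ovariectomy under vehicle 1 of the 6 rose and 1 fell, beside 12.4% and 15.5% of all genes. Of 9 pericentral hepatocyte markers, the zone where Cyp1a2, Cyp2e1 and Cyp2c29 are known to be expressed, 1 rose and 2 fell with dexamethasone in ovariectomized females, and 4 fell in intact females. Their summed level was 16.01 to 16.12 in ovariectomized dexamethasone, 15.75 to 15.90 in ovariectomized vehicle, 15.47 to 15.93 in intact dexamethasone and 15.79 to 15.94 in intact vehicle libraries. Of 10 periportal markers, 6 rose and 1 fell in ovariectomized females and 5 rose and 1 fell in intact females, with sums in the same group order of 18.73 to 18.85, 17.79 to 18.17, 18.41 to 18.64 and 18.03 to 18.31. Of 6 Kupffer cell markers, 2 fell with dexamethasone in each state and 5 fell after ovariectomy under each treatment (15.5% of all genes under vehicle and 5.08% under dexamethasone), with sums of 12.85 to 13.17, 13.09 to 13.31, 13.32 to 13.44 and 13.56 to 13.63. All 4 B cell markers fell with dexamethasone in both states. Of 6 stellate cell markers 1 rose in ovariectomized and 4 in intact females. Of 6 endothelial markers 2 rose and 2 fell in ovariectomized females, and 3 rose and 1 fell in intact females. Of 5 cholangiocyte markers 2 fell in ovariectomized and 1 rose in intact females. Of 4 T and NK cell markers 0 passed in limma in any comparison, and 0 had an unadjusted p under 0.05. No marker used was listed at 0 in every library, and the part of these shifts in the P450 results was not tested.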

How the data were processed

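Liver RNA was extracted with TRIzol and RNeasy columns, and TruSeq libraries were sequenced on a NextSeq, per the labels' protocols. The submitters' processing notes name DESeq, DESeq2, HTSeq, TopHat2 and Trim Galore, and the build mm9. The authors deposited normalized log2 values made from gene counts, per the labels. How they were transformed, and with which annotation, is not given in the sources used here. Low values appear shrunk, so fold changes of low genes may be understated, and depth is unknown.

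The table held 24962 entries, of which 6294 were listed at 0 in every library. Genes with a mean of at least 4 were tested, 12965 in number. A single limma fit (version 3.58.1, R 4.3.3) held all 12 libraries (lmFit, then eBayes with a variance trend, 8 residual degrees of freedom), with Benjamini-Hochberg adjustment over all genes tested in each of 5 comparisons. The script was tested on simulated data. Members and lists were chosen with earlier results of these data known. Named members were a fixed set, up to 8 that passed per comparison by size, and the highest of each subfamily of 3 or more; others appear to complete a count. Alternatives covered the filter, pseudocount, normalization, variance model, libraries fitted, replicate block, minimum fold and each library left out. Shared 50-base words came from GENCODE transcripts of GRCm38, and promoter windows from RefSeq.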

Additional observations from a re-analysis of the deposited data

Results flagged for a closer look

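The response to dexamethasone differed between ovariectomized and intact females, by limma's test of the difference itself, for 5 members. The differences, ovariectomized response minus intact response, were 0.77 ± 0.16 for Cyp3a13, 0.66 ± 0.20 for Cyp2e1, 0.65 ± 0.16 for Cyp2c39, 0.56 ± 0.15 for Cyp2c29 and -0.67 ± 0.21 for Cyp2j9 (limma adjusted p = 0.00597, 0.0357, 0.0149, 0.0172 and 0.0389). Those of Cyp3a13, Cyp2c39 and Cyp2c29 passed without any 1 of the 12 libraries, and those of Cyp2e1 and Cyp2j9 were each lost without 9 of them.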

How the results depend on the processing

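Over 854 recomputations of the 52 member values that passed, 0 changed sign and 157 no longer passed, and 30 of the 52 passed under every alternative apart from the minimum fold. A minimum absolute log2 fold change of 1 left 4 members and 359 genes for dexamethasone in ovariectomized females, 5 and 313 in intact females, 0 and 66 for ovariectomy under vehicle, 1 and 40 under dexamethasone, and 0 and 165 for the difference between responses, by its own construction. Under dexamethasone 1662 genes differed by ovariectomy, 1004 higher and 658 lower. This was 768 after quantile normalization (400 and 368), 601 with only the libraries compared (398 and 203), and 728 higher and 782 lower after recentring; members were 5 higher and 1 lower, and 4 and 0 after quantile normalization. The cause was not tested. Leaving out 1 library gave 10 to 14 members and 3982 to 4866 genes for dexamethasone in ovariectomized females, 18 to 26 and 5214 to 6040 in intact females, 3 to 7 and 2215 to 3749 for ovariectomy under vehicle, 0 to 6 and 207 to 1286 under dexamethasone, and 3 to 8 and 2174 to 3520 for the difference. The fewest genes under dexamethasone, 207 and 312, came without the third ovariectomized and the first intact library. Some changes near 0 that had not passed changed sign. Cyp3a11 in ovariectomized females was -0.089 to 0.030 with a library left out, and in intact females 0.046 after quantile normalization and -0.14 to 0.039 with a library left out. Cyp2j9 in ovariectomized females was -0.023 after recentring, -0.050 after quantile normalization and -0.058 to 0.073 with a library left out. With a library left out, Cyp2c29 in ovariectomized females was -0.14 to 0.0051, and Cyp2c39 in intact females -0.18 to 0.033. Replicate numbers are shared by the groups but the labels do not tie them together. Same-numbered libraries had deviations that correlated at -0.231 to 0.396 over 18 pairs, of which 6 were over 0.1. The same number correlated best in only 6 of the 18 pairs. With the replicate number as a block, 16 and 24 members changed with dexamethasone in ovariectomized and intact females, 5 and 6 with ovariectomy under vehicle and dexamethasone, and 5 for the difference. The block ended the calls of Cyp2j5 (dexamethasone in intact, adjusted p = 0.0517) and Cyp3a59 (ovariectomy under dexamethasone, adjusted p = 0.0708).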
